A study of Mus musculus with 10 samples.

Results

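The 40 genes described here encode the machinery by which a cell senses and answers unfolded protein in the endoplasmic reticulum (ER), together with the wider integrated stress response. They were chosen by symbol from a list covering the unfolded protein sensors and eIF2α kinases, the transcription factors they act through, ER chaperones, protein disulfide isomerases, ER-associated degradation and targets of ATF4 and CHOP. Each symbol was matched to 1 Ensembl identifier of the deposited table of 55359 genes, and all 40 passed the filter on low values. Where identifiers shared a symbol, the one with the highest mean was used. RNA was sequenced from orthotopic pancreatic tumors of KPC K8484 cells, a mouse line of pancreatic cancer, grown in C57BL/6 mice. The 5 CTRL tumors came from normoglycemic mice on regular water and the 5 D30 tumors from mice made hyperglycemic with water holding 30% dextrose. According to the methods of the study, the cells carried luciferase and were implanted into mice of both sexes at 10 weeks of age, and the water was given for 14 days. All tumors derive from 1 cell line and were taken whole, with host stroma and adjacent pancreas where present, and the sex of each mouse is not given by column.

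Secretory proteins fold in the ER with the help of chaperones such as BiP, the product of Hspa5. When unfolded protein builds up, the kinase and nuclease IRE1α (Ern1) splices Xbp1 mRNA, ATF6 (Atf6) is cut to release a transcription factor, and PERK (Eif2ak3) phosphorylates eIF2α. Phosphorylated eIF2α lowers general translation while favouring that of ATF4, and the kinases for amino acid shortage, heme shortage and double-stranded RNA converge on the same residue, so that this branch is called the integrated stress response. ATF4 and its partner CHOP (Ddit3) then raise genes of amino acid supply and the feedback genes Trib3 and Ppp1r15a, whereas ATF6 and spliced XBP1 act mainly on chaperones, disulfide isomerases and degradation factors. The exocrine pancreas, with its high secretory load, is known for a strong dependence on this system. These controls act largely on protein and on mRNA splicing, neither of which a table of counts per gene can show.

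The branches are known to act through different DNA elements, and those found in the promoters of the 40 genes are shown first so that the values can be read beside them. The ER stress response element, bound by NF-Y together with ATF6 or XBP1, was searched as CCAAT, 9 bases of any kind and CCACG. The C/EBP-ATF element, bound by ATF4 with C/EBP proteins such as CHOP, was searched as TGATGNAAN, and the UPR element as TGACGTGG, all on both strands of the 300 bases from 250 before to 50 after each RefSeq transcription start (GRCm38.p6). The list was chosen to include known targets of these factors, so the shares below describe it and were not tested. Shares of the list count genes with the element at any of their starts, and those of all promoters count single starts. An entry was found for 35 of the 40 genes. The ER stress response element was present in 8 of them (22.9%) against 0.119% of all 32841 promoters. These 8 genes follow, Hsp90b1 with both of its copies, each element with 6 bases on either side, on the strand where the element reads CCAAT to CCACG and with the element in capitals.
Hspa5: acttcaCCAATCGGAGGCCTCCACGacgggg
Calr: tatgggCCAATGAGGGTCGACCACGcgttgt
Canx: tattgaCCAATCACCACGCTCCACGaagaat
Hsp90b1, distal copy: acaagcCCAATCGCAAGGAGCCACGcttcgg
Hsp90b1, proximal copy: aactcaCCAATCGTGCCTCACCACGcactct
Creld2: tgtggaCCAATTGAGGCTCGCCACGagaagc
Dnajc3: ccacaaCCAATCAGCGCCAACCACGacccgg
Pdia6: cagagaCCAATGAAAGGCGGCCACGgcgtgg
Syvn1: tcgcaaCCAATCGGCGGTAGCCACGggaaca
All but Syvn1, which encodes the ubiquitin ligase of ER-associated degradation, are genes of folding. In Hspa5 the element lay 65 to 47 bases before the start, and the 250 bases before that start (window chr2:34771840-34772139, plus strand) read as follows with the element in capitals.
Hspa5 promoter: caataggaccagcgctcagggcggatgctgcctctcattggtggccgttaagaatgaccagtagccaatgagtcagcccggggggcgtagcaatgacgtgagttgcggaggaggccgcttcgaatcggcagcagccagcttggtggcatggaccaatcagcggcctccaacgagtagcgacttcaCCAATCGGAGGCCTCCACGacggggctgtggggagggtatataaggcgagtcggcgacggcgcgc

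The C/EBP-ATF element was present in 5 of the 35 genes (14.3%) against 3.95% of all promoters, and the UPR element in 0 of 35 against 0.676%. The 5 genes that held the former are given with the element in capitals, on the strand where it reads TGATG.
Trib3: cccggcTGATGTAAAcctgag
Nupr1: cctgtcTGATGCAATctggcc
Fgf21: gacggaTGATGCAATgggggg
Herpud1: gcgggcTGATGCAACccgccg
Vldlr: gagcgcTGATGCAACtattgc
In Trib3 it lay within the transcript, at its bases 14 to 22, and in Nupr1 111 to 103 bases before the start. The 250 bases before the Nupr1 start (window chr7:126625421-126625720, minus strand) are shown 5′ to 3′ along the gene, where the element reads as its reverse complement.
Nupr1 promoter: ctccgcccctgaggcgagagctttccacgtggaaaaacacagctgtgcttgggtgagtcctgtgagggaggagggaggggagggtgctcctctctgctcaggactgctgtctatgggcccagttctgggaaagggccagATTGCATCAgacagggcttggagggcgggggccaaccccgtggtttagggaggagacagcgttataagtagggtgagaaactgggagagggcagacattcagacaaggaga
A match of letters is a description of the window and not of binding, and elements outside it or spelled otherwise were not searched.

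Values below are the normalized counts that the authors deposited, that is, read counts scaled by 1 factor for each tumor, and they are listed for the CTRL tumors in the order of columns N1, N2, N4, N5 and N6 and for the D30 tumors in the order T1, T2, T4, T5 and T7. Means are given ± SD with 5 tumors per group. Fold changes are D30 over CTRL on the scale of log2(normalized count + 1), which understates the change of genes with few counts. They were tested with limma over the 24560 genes with a mean of at least 1, and a gene was called at a Benjamini-Hochberg adjusted p under 0.05 over all of these genes. The tumors held 29192261 to 42122304 recovered reads. T4 stood apart by transcript length. Over 17307 genes with a mean of at least 10, its median log2 deviation from the other D30 tumors was 0.48 in genes of up to 2644 exonic bases and -0.36 in genes of more than 5204, the cut points that split these genes into 3 equal parts by length. Among the 40 genes, split at their median of 3634 exonic bases, the median deviation of T4 was -0.088 in the shorter and -0.49 in the longer ones. T4 was also the only tumor with reads of 4 Y-linked genes (841 reads against 0 in each of the others). Fits without T4 therefore also leave out the only tumor with such reads. Transcript length and Y-linked reads cannot be told apart in that step, and whether the reads reflect the sex of the mouse was not tested. T5 had the fewest detected genes, 20482 against up to 25912. Values without T4 or T5 stand beside several of the results below. Exons of Eif2ak1, Eif2ak2, Eif2ak3, Ddit3, Cebpb, Cebpg, Ppp1r15a, Ppp1r15b, Hsp90b1, Dnajb9, Manf, Pdia3, Pdia4, Pdia6 and Syvn1 overlap those of another gene by 12 to 640 bases, and whether reads were counted by strand is not given in the sources used here, so their values may include reads of the neighbor. Since whole tumors were sequenced, fewer cells of a type and less RNA per cell cannot be told apart.

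Across the 40 genes, the changes lay on the side of D30 but few of them passed the test. The fold change was above 0 for 33 genes and below 0 for 7, with a median of 0.33 against -0.06 over all tested genes. Trib3 and Nupr1 rose and no gene fell at an adjusted p under 0.05. These 2 of 40 compare with 1.40% of all tested genes called higher and 1.36% called lower. An unadjusted p under 0.05 with a higher mean in D30 was found for 13 genes, none of them a sensor, against 7.79% of all tested genes, and with a lower mean for 0, against 9.54%. The 5 D30 values all exceeded the 5 CTRL values for 6 genes (Atf4, Nupr1, Trib3, Hspa5, Sdf2l1 and Pdia6) against 2.87% of all tested genes, and all fell below them for 0 against 3.32%. Genes of 1 pathway are not independent of each other, so these counts describe the list and were not tested. The split depended on the scaling. With tumors scaled by library size alone, 240 of all tested genes were called higher and 626 lower, against 344 and 334 as deposited, and the median over all genes moved from -0.06 to -0.27. Under that scaling 24 of the 40 genes had a fold change above 0, with a median of 0.11, and Trib3 and Nupr1 were again the 2 called. The groups of Trib3 and Nupr1 also stayed apart under it, whereas those of Atf4, Hspa5, Sdf2l1 and Pdia6 overlapped. Statements below that groups did or did not overlap refer to the deposited values unless another scaling is named.

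**Figure D1:**
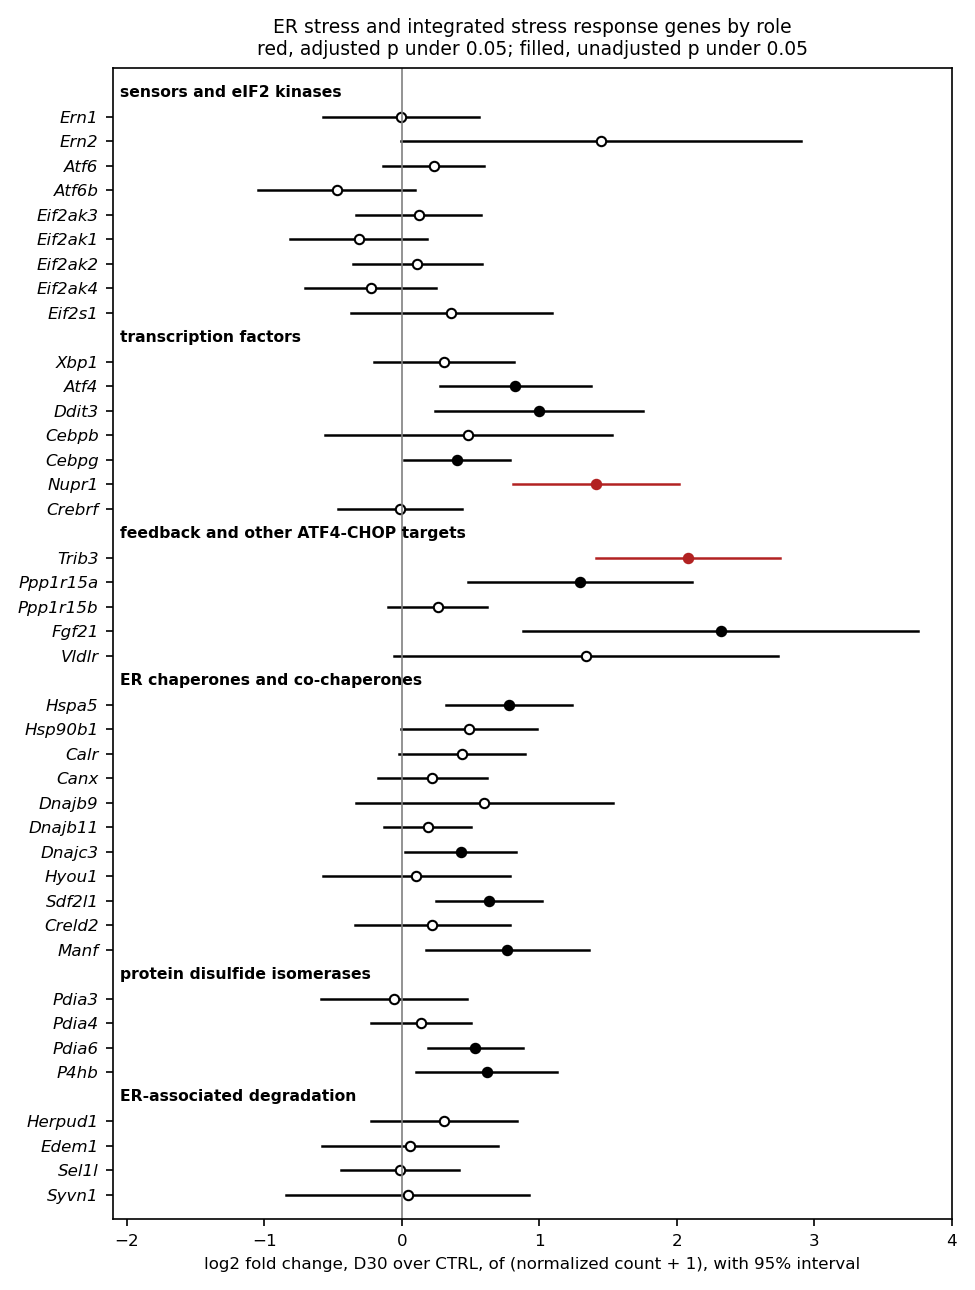
Log2 fold change of D30 over CTRL tumors for the 40 genes in groups by role, with the 95% interval from limma as a horizontal line. Red marks an adjusted p under 0.05 and filled circles an unadjusted p under 0.05. Trib3 at 2.08 and Nupr1 at 1.41 are the genes in red, and intervals of the sensors all reach below 0.

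The number called depended on the tumors and the test. With T4 left out 7 of the 40 genes were called higher, against 3.22% of all tested genes, namely Ern2, Nupr1, Trib3, Hspa5, Hsp90b1, Sdf2l1 and Pdia6. With T5 left out Nupr1 and Trib3 were called, against 1.61% of tested genes. On the recovered reads edgeR called the same 2 genes, against 1.55%, and DESeq2 called 10, against 5.41% (Ern2, Atf4, Ddit3, Nupr1, Trib3, Ppp1r15a, Fgf21, Hspa5, Sdf2l1 and Pdia6). With T4 and T5 both left out, an alternative chosen after these tumors were seen to stand apart, 10 genes were called, against 4.34% of tested genes, among them Cebpg, Ppp1r15a, Hyou1 and Creld2, which the full set did not call. T5 held the highest value of 13 of the 40 genes, and T4 held the lowest of 16 and the highest of 8.

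**Figure D2:**
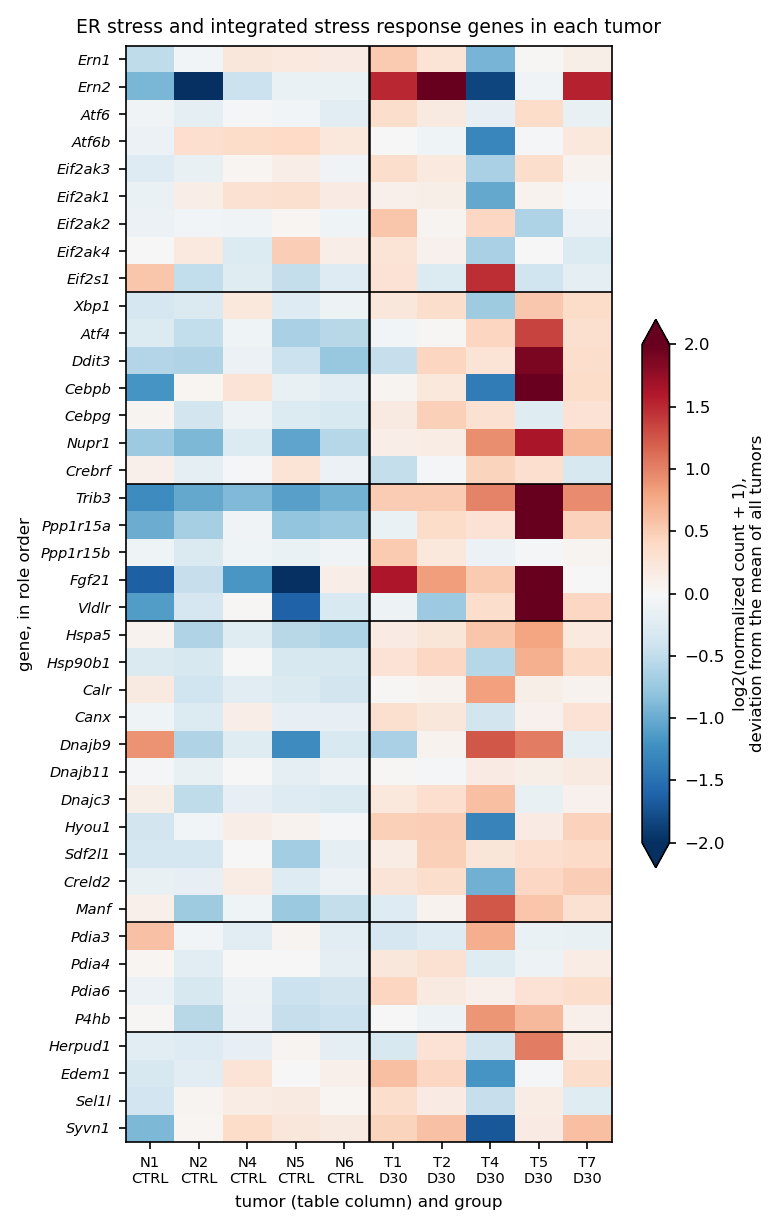
Log2(normalized count + 1) of the 40 genes in each tumor, less the gene's mean over the 10 tumors, with genes in rows by role and tumors in columns by group. The color scale ends at -2 and 2. The darkest red cells of the ATF4-CHOP genes are in T5, while T4 is blue for genes such as Hyou1, Creld2, Edem1 and Syvn1.

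None of the 9 sensors and eIF2α kinases was called or had an unadjusted p under 0.05, and their median fold change was 0.11, or -0.11 under library-size scaling. Ern1, which encodes the IRE1α sensor, had 1133, 1543, 1870.2, 1837 and 1798 normalized counts in the CTRL tumors and 2300.0, 1934, 842, 1632 and 1733 in the D30 tumors. These values overlapped, with T4 the lowest of all 10 and T1 the highest. The log2 fold change was -0.0054 (95% interval -0.57 to 0.56, limma adjusted p = 0.995). Atf6, the sensor that is itself a transcription factor once cut, had 2564, 2363, 2638, 2600.1 and 2312 in the CTRL and 3426, 3047, 2418, 3479.9 and 2429.8 in the D30 tumors. T5 and T1 were highest, T4, T7 and most CTRL tumors were close together, and the difference of 0.23 did not pass (95% interval -0.13 to 0.59, limma adjusted p = 0.522). Eif2ak3, which encodes PERK, had 1751, 1886, 2153, 2285 and 1979 against 2667, 2393, 1327, 2658 and 2183. Its T4 value was the lowest of all and the other D30 tumors lay above the CTRL median, with a difference of 0.12 (95% interval -0.33 to 0.58, limma adjusted p = 0.814) that turned to -0.10 under library-size scaling.

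The other kinases that phosphorylate eIF2α also did not pass. Eif2ak1, the heme-regulated kinase, had a mean of 2349 ± 287 in CTRL and 1953 ± 525 in D30 tumors. Eif2ak2, the kinase PKR for double-stranded RNA, had 1416 ± 59.3 and 1592 ± 479. Eif2ak4, the amino acid sensor GCN2, had 1009 ± 198 and 869 ± 203. Their adjusted p values from limma were 0.523, 0.838 and 0.645. Eif2s1, which encodes the shared substrate eIF2α, had 3719 ± 1289 and 5241 ± 3459, where T4 alone reached 11286 and no other tumor exceeded 5978. Its fold change of 0.36 was 0.035 without T4. Atf6b, the paralog of Atf6, had the lowest fold change of the list at -0.47 (limma adjusted p = 0.387), and T4 held 1046 against 2438 to 2973 in the other D30 tumors.

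Ern2, the IRE1 paralog of mucin-secreting epithelium, is described because its call turned on 1 tumor, a choice made after its values were seen. It had 426, 201, 596, 739 and 736 in the CTRL and 2298, 4530.3, 224, 766 and 2349 in the D30 tumors. T1, T2 and T7 exceeded every CTRL tumor by a wide margin, T5 lay just above N5, the highest of them, and T4 lay among the lowest. The fold change was 1.45 with a limma adjusted p of 0.291, which became 2.09 and 0.0236 without T4.

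Of the 7 transcription factors Nupr1 rose, and Atf4, Ddit3 and Cebpg had an unadjusted p under 0.05 without being called. The median fold change of this group was 0.48, which ranged from 0.45 to 0.82 with 1 tumor left out, the highest without T4, and was 0.79 with edgeR and 0.81 with DESeq2. Nupr1, a small stress-induced nuclear protein downstream of ATF4, had 1673, 1480.5, 2303, 1338 and 1862 in the CTRL tumors and 3039, 3085, 5299.6, 8601 and 4415 in the D30 tumors. All D30 tumors exceeded all CTRL tumors, T1 and T2 by the least and T5 by the most. The means were 1731 ± 376 and 4888 ± 2283, a ratio of 2.82, and the log2 fold change was 1.41 (standard error 0.28, limma adjusted p = 0.0173). The call was lost without N2 or without N5, with limma adjusted p values of 0.0630 and 0.0568. Its promoter is the one shown above with a C/EBP-ATF element.

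**Figure D3:**
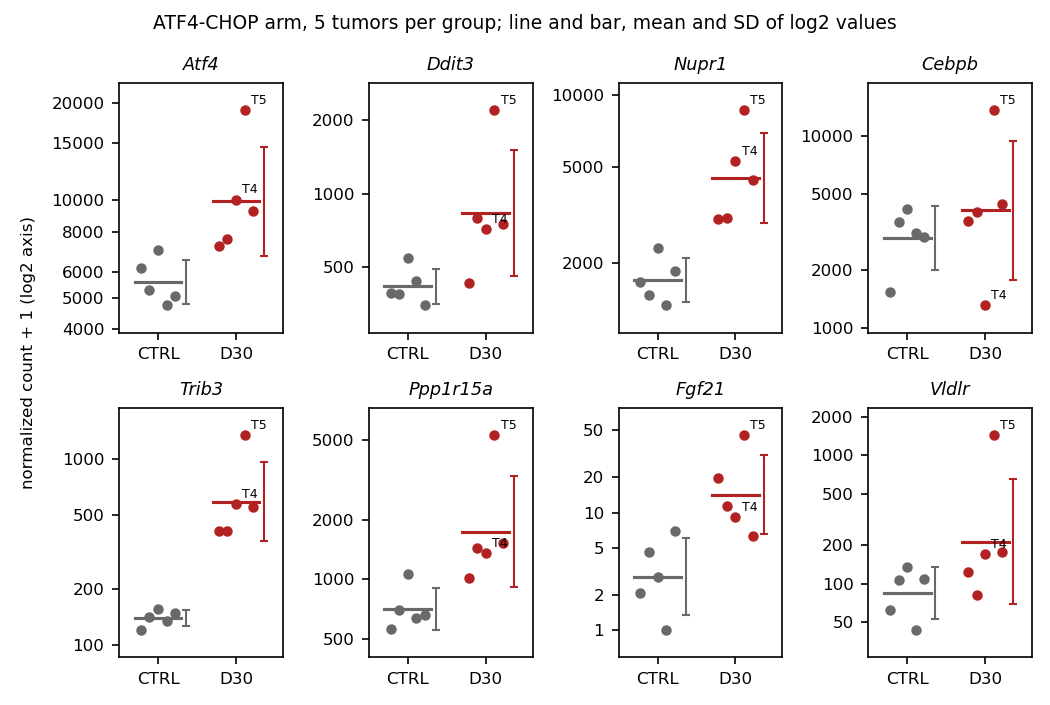
Normalized counts plus 1, on a log2 axis, of 8 genes of the ATF4-CHOP arm in the 5 CTRL (grey) and 5 D30 (red) tumors. Points are tumors, horizontal lines the means of the log2 values and bars their SD. T5 is the highest tumor in each panel, and in Trib3, Nupr1 and Atf4 all D30 points lie above all CTRL points.

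Atf4, the central factor of the integrated stress response, had 6186, 5290.0, 7011, 4745 and 5075 in the CTRL and 7212, 7589, 10049, 18944 and 9280.2 in the D30 tumors. The groups did not overlap, although T1 exceeded N4 only narrowly and T5 stood far above the next tumor, T4. The mean went from 5661 ± 925 to 10615 ± 4801 and the fold change was 0.83 (95% interval 0.28 to 1.37), which did not pass (limma adjusted p = 0.109). Without T5 the fold change was 0.59 (limma adjusted p = 0.108), and DESeq2 called the gene on all tumors (adjusted p = 0.0253). Ddit3, which encodes CHOP, the factor tied to cell death under lasting ER stress, had 392, 387, 545, 437 and 349 against 429.8, 797, 714, 2186 and 751. T1 lay within the CTRL range, T2, T4 and T7 lay above it and T5 far above. The fold change of 0.997 did not pass in limma (adjusted p = 0.161) and was 0.65 without T5. Exons of Ddit3 overlap those of Mars and Gm4189 on the opposite strand and those of another entry named Ddit3 on the same strand. Reads counted for that other entry are not part of the values above.

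Xbp1, whose spliced mRNA carries the IRE1α signal, had 4010.3, 4128, 5814, 4212 and 4701 in the CTRL and 5872, 6416, 3075, 7329.6 and 6513 in the D30 tumors. T1, T2, T5 and T7 exceeded every CTRL tumor and T4 was the lowest of all. The fold change was 0.31 (limma adjusted p = 0.544), and without T4 it was 0.52 (limma adjusted p = 0.0541). Counts per gene do not separate spliced from unspliced Xbp1. Cebpg, a partner of ATF4 on the C/EBP-ATF element, had 2097, 1570.1, 1876, 1668 and 1645 against 2295, 2805, 2486, 1714 and 2464, with T5 alone of the D30 tumors inside the CTRL range, and a fold change of 0.40 (limma adjusted p = 0.273). Cebpb, another partner, reached 13588 in T5 and 1307 in T4, the highest and the lowest of all tumors, and its fold change of 0.48 was 0.050 without T5 and 0.89 without T4. Crebrf, which binds and restrains the factor CREB3, had a fold change of -0.014 (limma adjusted p = 0.982).

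The 5 feedback genes and other ATF4-CHOP targets had the highest median fold change of the roles, 1.34, which was 0.89 without T5, 2.11 with edgeR and 2.14 with DESeq2. Trib3, a pseudokinase that binds and restrains ATF4 and CHOP, had 119, 139.5, 154, 134 and 147 in the CTRL tumors and 408, 408, 570.2, 1351 and 549.7 in the D30 tumors. The lowest D30 tumor, T2, was above the highest CTRL tumor, N4, by more than the whole CTRL range. The mean rose from 139 ± 13.6 to 657 ± 395, a ratio of 4.74, with a log2 fold change of 2.08 (standard error 0.31, limma adjusted p = 0.00431). T5 held the highest value. Without it the fold change was 1.78 (limma adjusted p = 0.00229), and over all fits that left out 1 tumor the adjusted p ranged from 0.00229 to 0.0167. Trib3 was called under every alternative run.

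Ppp1r15a encodes GADD34, the phosphatase subunit that removes phosphate from eIF2α and so ends the response. It had 559.7, 702, 1062, 642 and 662 in the CTRL and 1014, 1431, 1359, 5322 and 1520.1 in the D30 tumors. T5 stood far above the next tumor, T7, and T1 lay just below N4, so that the groups overlapped by this pair alone. The fold change of 1.30 (95% interval 0.48 to 2.11) did not pass (limma adjusted p = 0.0909) and was 0.89 without T5 (limma adjusted p = 0.0504). Ppp1r15b, the constitutive subunit for the same phosphatase, had 4121 ± 249.8 and 4989 ± 918 (limma adjusted p = 0.462).

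Fgf21, a secreted metabolic hormone under ATF4 control, was near the limit of detection. Its values were 1.05, 3.61, 1.83, 0 and 5.99 in the CTRL and 18.5, 10.3, 8.10, 44.6 and 5.33 in the D30 tumors, which correspond to 0 to 7 reads in CTRL and 5 to 39 in D30 tumors. T7, the lowest D30 tumor, lay below N6. The fold change was 2.32 with a wide interval of 0.88 to 3.76 (limma adjusted p = 0.0871). Vldlr, a lipoprotein receptor that ATF4 is known to raise, is named for a single tumor, after its values were seen. T5 held 1442 and no other tumor exceeded 177, and the fold change of 1.34 (limma adjusted p = 0.308) was 0.65 without T5.

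The 11 ER chaperones and co-chaperones had fold changes above 0 in each case, from 0.11 to 0.78 with a median of 0.44, and none was called on all 10 tumors. Under library-size scaling 7 of the 11 stayed above 0 and the median was 0.21. Hspa5, which encodes BiP, the main ER chaperone and the brake on the sensors, had 32115, 20249, 25882, 20837 and 20088 in the CTRL and 34332, 36385, 45204, 52948 and 35068 in the D30 tumors. The groups did not overlap, with T1 above N1 by the least and T5 the highest. The mean went from 23834 ± 5211 to 40787 ± 8080.2, a ratio of 1.71, and the fold change of 0.78 (95% interval 0.32 to 1.23) did not pass (limma adjusted p = 0.0704). It passed without T4 (limma adjusted p = 0.0438) and not without T5 (limma adjusted p = 0.110).

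Sdf2l1, a cofactor that helps BiP hold nascent protein, had 830.0, 834, 1054, 653 and 934 against 1179, 1474, 1258, 1338 and 1375. The groups did not overlap, and the D30 tumors were close together. The fold change was 0.63 (95% interval 0.25 to 1.02, limma adjusted p = 0.0796) and passed without T4 (limma adjusted p = 0.0344). Dnajc3, a co-chaperone also known as an inhibitor of eIF2α kinases, had 3646, 2360.2, 2997, 2808 and 2753 against 3859, 4234, 5052, 3031 and 3537, where N1 was the 1 CTRL tumor above T5 and T7, and a fold change of 0.43 (limma adjusted p = 0.258). Manf, a small secreted ER protein, had 6559, 3739, 5745, 3673 and 4420.2 against 5146, 6418, 14431, 8978 and 7606. T4 was by far the highest and T1 and T2 lay within the CTRL range. Its fold change of 0.77 was 0.55 without T4 (limma adjusted p = 0.170 and 0.147).

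**Figure D4:**
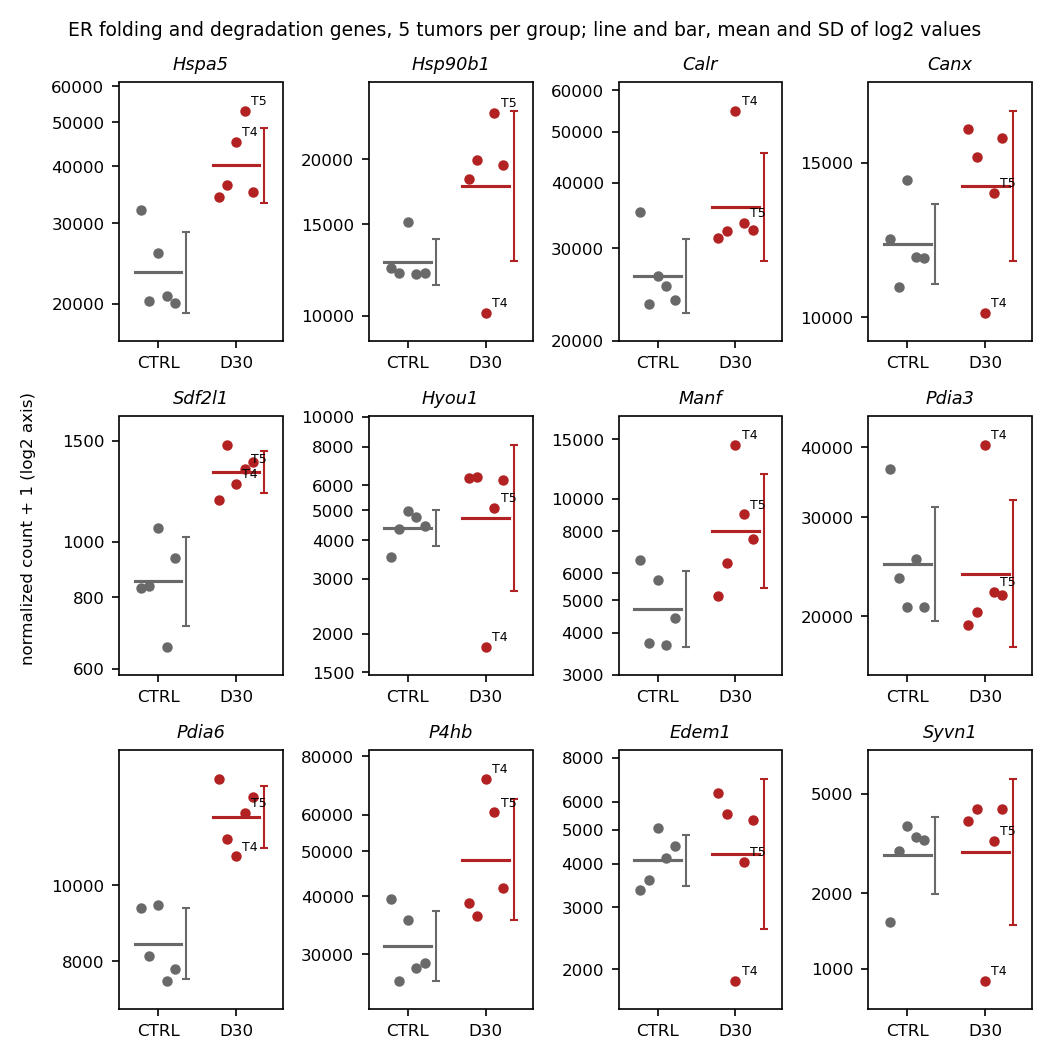
Normalized counts plus 1, on a log2 axis, of 12 genes of ER folding and degradation in the 5 CTRL (grey) and 5 D30 (red) tumors. Points are tumors, lines the means of the log2 values and bars their SD. All D30 points lie above all CTRL points for Hspa5, Sdf2l1 and Pdia6, while T4 is the lowest tumor for Hsp90b1, Canx, Hyou1, Edem1 and Syvn1 and the highest for Calr, Manf, Pdia3 and P4hb.

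Hsp90b1, the ER member of the HSP90 family, is given because 1 tumor decided its call, a choice made after its values were seen. It had 12352, 12057, 15177, 12036 and 12085 in the CTRL and 18313, 19925, 10106, 24558 and 19542 in the D30 tumors. Each of T1, T2, T5 and T7 exceeded every CTRL tumor, while T4 was the lowest of all. The fold change of 0.49 (limma adjusted p = 0.296) became 0.69 without T4 (limma adjusted p = 0.0154). Hyou1, a large BiP-like chaperone with 7230 exonic bases, showed the same arrangement, with 1808 in T4 against 5074 to 6397 in the other D30 tumors. Creld2, an ER protein with disulfide isomerase activity and 1366 exonic bases, did so too, with 786 in T4 against 1841 to 2149. In both, all D30 tumors but T4 exceeded all CTRL tumors, and the fold change without T4 was 0.45 for Hyou1 and 0.49 for Creld2 (limma adjusted p = 0.0843 and 0.0502).

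The lectin chaperones of glycoproteins differed in the same tumor. Calr, the soluble one, held 54823 in T4 and 31382 to 33493 in the other D30 tumors, against a CTRL mean of 26884 ± 4757. Canx, the membrane-bound one, held 10108 in T4 and 13872 to 16406 in the others, against a CTRL mean of 12168 ± 1321. Their fold changes were 0.44 and 0.22 (limma adjusted p = 0.314 and 0.585). Exonic lengths are 2880 bases for Calr and 4693 for Canx, and the part of transcript length in these T4 values was not tested. Dnajb9, a BiP co-chaperone that is a known target of XBP1, had 246 ± 148 and 372 ± 203, with N1 and T4 among the highest, and Dnajb11, another co-chaperone, had 2335 ± 135 and 2660.1 ± 166 (limma adjusted p = 0.516 and 0.552).

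Among the 4 protein disulfide isomerases, which form and rearrange disulfide bonds in folding proteins, 3 had fold changes above 0, or 2 under library-size scaling, and none was called. Pdia6 had 9358, 8115, 9443, 7550.5 and 7823 in the CTRL and 13638, 11439, 10873, 12343 and 12920.1 in the D30 tumors. The groups did not overlap and each D30 tumor was above the highest CTRL tumor, N4. The fold change was 0.53 (95% interval 0.19 to 0.88, limma adjusted p = 0.0989), and it passed without T4 (limma adjusted p = 0.0245). P4hb, the abundant PDI that is also a subunit of prolyl 4-hydroxylase, had 39412, 26295, 35611, 28113 and 28802 against 38799.5, 36282, 71618, 60633 and 41648. T4 and T5 were far above the rest while T1 and T2 lay within the CTRL range, and the fold change was 0.62 (limma adjusted p = 0.198). Pdia4 had 8606 ± 726 and 9539 ± 1479, and Pdia3, the partner of calreticulin and calnexin, had 25375 ± 6577 and 24801 ± 8798, with N1 and T4 standing above the other tumors. Their adjusted p values from limma were 0.727 and 0.934.

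The 4 genes of ER-associated degradation, which extract misfolded protein from the ER for the proteasome, had a median fold change of 0.05, or -0.17 under library-size scaling, and none was called. Herpud1, an organizer of the extraction complex with a C/EBP-ATF element in its promoter, had 3980.0 ± 338 and 5239 ± 2252, where T5 held 8962 and no other tumor exceeded 5396, with a fold change of 0.31 that was 0.089 without T5. Edem1, which directs trimmed glycoproteins to degradation, had 4129 ± 689 and 4618 ± 1756. Sel1l and Syvn1, the adaptor and ubiquitin ligase of the same complex, had 2827 ± 402 and 2832 ± 625, and 2957 ± 838 and 3341 ± 1444, respectively. T4 was the lowest tumor for Edem1, Sel1l, Syvn1 and Herpud1. Adjusted p values from limma ran from 0.564 for Herpud1 to 0.981 for Sel1l. Without T4 the fold changes of all 4 were above 0, from 0.10 for Sel1l to 0.47 for Syvn1, and none passed.

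Divided by exonic length, the folding genes were the most abundant of the list. In CTRL tumors the mean was 11061 normalized counts per kilobase for P4hb, 9335 for Calr, 8084 for Pdia3 and 5636 for Hspa5. In D30 tumors the same 4 led with 17405, 12815, 7901 and 9645. Per kilobase, Atf4 stood at 2401 in CTRL and 4502 in D30 tumors, against 246 and 569.5 for Ddit3 and 65.3 and 309 for Trib3. Fgf21 and Vldlr were the least abundant, with 2.63 and 8.98 in CTRL tumors.

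A further 119 genes of the same pathways, listed by hand and all tested, were examined alongside. Of these 92 had a fold change above 0, or 60 under library-size scaling, 7 rose, 0 fell, 21 had an unadjusted p under 0.05 on the side of D30, and 1, Dnajc10, on the side of CTRL. The called share can be read against the 1.40% of all tested genes called higher. Under library-size scaling 3 of these 7 calls were lost. The 22 further targets of ATF4 and CHOP held 5 of the 7 calls. All 22 had a fold change above 0, or 21 under TMM and 18 under library-size scaling, and their median was 0.52. Atf5, a related stress factor, had 809, 1092, 1048, 1025 and 928 in the CTRL and 1676, 1667, 1820.5, 2925 and 2042 in the D30 tumors (1.02, limma adjusted p = 0.0147). Its exons overlap those of Nup62 and Il4i1 on the opposite strand. Asns, asparagine synthetase, had 2173, 1736, 2629, 2026 and 2146 against 3692, 3223, 3719.7, 4827 and 3534 (0.83, limma adjusted p = 0.0243). In both genes every D30 tumor exceeded every CTRL tumor, and the D30 tumors other than T5 were close together.

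Gdf15, a stress-induced secreted cytokine, was low and had 11.6, 34.0, 58.5, 16.8 and 31.7 in the CTRL and 109, 104, 79.8, 211 and 103 in the D30 tumors (2.08, limma adjusted p = 0.0253). Mthfd2, the mitochondrial folate enzyme, had 993, 895, 1015, 599 and 765 against 1815, 1235, 1335, 2189.8 and 1584 (0.93, limma adjusted p = 0.0380). Ddit4, an inhibitor of mTORC1 signalling, had 3138, 3089.6, 3391, 2914 and 3288 against 5535, 5643, 6044, 15929 and 5387 (1.14, limma adjusted p = 0.0449). For these 3 genes too the groups did not overlap, and T5 was the highest tumor. Among the rest of the list Atf3, Stc2, Psat1, Bbc3 and Sqstm1 had unadjusted p values under 0.05. Stc2, a secreted glycoprotein picked out after its values were seen, had a fold change of 1.46 (limma adjusted p = 0.0797) and was called at 1.89 without T4 (limma adjusted p = 7.99e-04). The amino acid transporter Slc7a5 had a fold change of 0.0076 and Chac1, which degrades glutathione, 0.56 (limma adjusted p = 0.995 and 0.357). Each of the calls of Atf5, Asns, Gdf15, Mthfd2 and Ddit4 was lost when some single tumor was left out. The call of Atf5 was lost without N6, that of Asns without N1, N2, N5, N6 or T7, and that of Gdf15 without N1, N2, N5, N6, T2 or T7. The call of Mthfd2 held only without T2 or T4, and that of Ddit4 only without T4 or T5. The highest adjusted p in these fits was 0.0528 for Atf5, 0.0962 for Asns, 0.0768 for Gdf15, 0.112 for Mthfd2 and 0.121 for Ddit4 (limma).

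**Figure D5:**
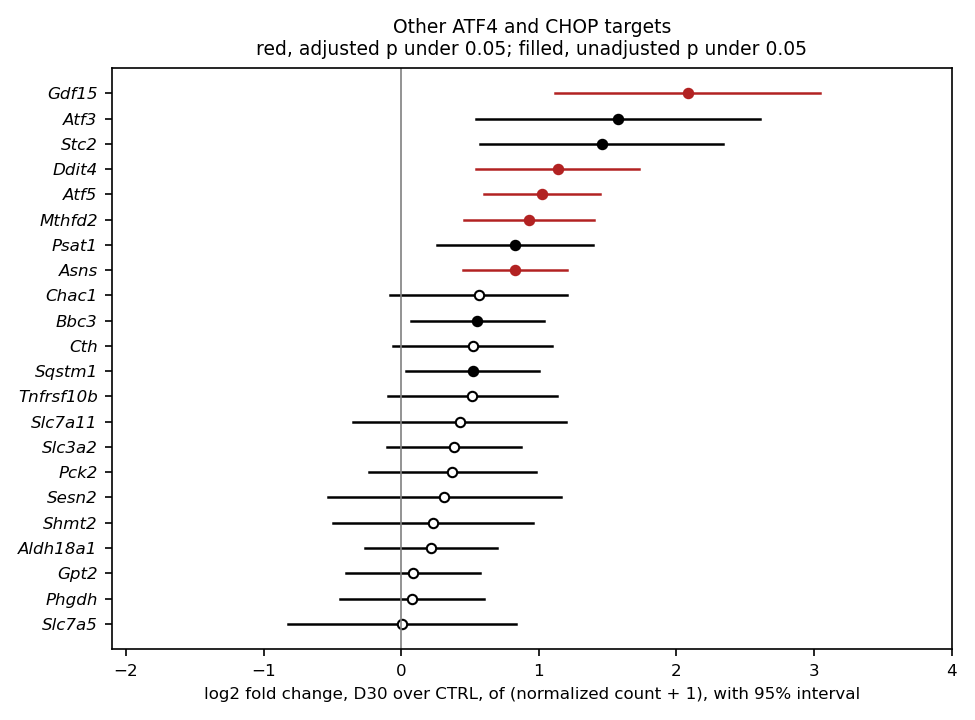
Log2 fold change of D30 over CTRL tumors for 22 further ATF4 and CHOP targets, in order of fold change, with the 95% interval from limma as a horizontal line. Red marks an adjusted p under 0.05 and filled circles an unadjusted p under 0.05. All 22 points are above 0, and the 5 in red run from 0.83 for Asns to 2.08 for Gdf15.

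None of the 12 cytosolic tRNA synthetases, many of which are ATF4 targets, was called, and 10 had fold changes above 0, or 5 under library-size scaling. Those with the smallest p were Sars at 0.73 and Cars at 0.69 (limma adjusted p = 0.120 and 0.142). Of 20 genes of ER folding and oxidation, 14 had fold changes above 0, or 13 under TMM and 11 under library-size scaling, and Ero1l rose. Ero1l, the oxidase that recharges protein disulfide isomerase, had 2210.3, 2435, 5832, 1906 and 2456 in the CTRL and 6816, 7281, 8765, 35011 and 7195 in the D30 tumors, with N4 well above the other CTRL tumors and T5 well above the other D30 tumors. Its fold change was 1.91 (limma adjusted p = 0.0350, up to 0.104 where the call was lost, without N1, N2, N5, N6, T2 or T7). Fkbp2, a prolyl isomerase of the ER, had the next smallest p of that list, with a fold change of 0.52 (limma adjusted p = 0.155).

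The 16 further genes of ER-associated degradation held 0 calls and a median of 0.09, or -0.14 under library-size scaling, and those with the smallest p were Derl1 at 0.38 and Edem2 at 0.19 (limma adjusted p = 0.294 and 0.568). Neither list of degradation genes had a member with an unadjusted p under 0.05. Of 29 genes of translocation, glycosylation and ER export 24 had fold changes above 0, or 16 under library-size scaling, and 0 were called. Ssr4 at 0.76, with T4 far above the rest, and Spcs2 at 0.54, of the signal peptidase, had the smallest p (limma adjusted p = 0.238 and 0.221). Among 20 genes of control of the 2 responses 11 had fold changes above 0, or 8 under library-size scaling, and Creb3l3 rose. Creb3l3, a membrane-bound factor cut in the manner of ATF6, had 69.4, 83.1, 141, 143 and 142 in the CTRL and 324, 431, 419, 351 and 336 in the D30 tumors. The groups were far apart and the fold change of 1.73 (limma adjusted p = 0.00534) stayed called in every fit that left out 1 tumor. Its relative Creb3 had 0.64 (limma adjusted p = 0.157).

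Summed markers of other cell types differed between the groups, and their part in these results was not tested. The summed normalized counts of 10 ductal and tumor epithelial markers ran from 224850 to 355380 in CTRL and from 377710 to 500710 in D30 tumors and did not overlap. With tumors scaled by library size alone they did overlap, with N4 above T4. Of these 10 markers 9 had fold changes above 0, 7 with an unadjusted p under 0.05, and none was called. Keratins made up most of the sum, while Epcam was low and went the other way, with means of 85.1 in CTRL and 16.1 in D30 tumors. Its fold change was -3.17 (limma unadjusted p = 0.00507, adjusted p = 0.0990), and without T4 it was called lower at -3.96 (limma adjusted p = 0.0115). The epithelial label therefore rests on the keratins, Cdh1 and Muc1. Sums of 10 fibroblast markers ran from 81540 to 143260 in CTRL and from 34125 to 109110 in D30 tumors, with all 10 fold changes below 0 and none called. Sums of 8 endothelial markers ran from 11539 to 18775 and from 6762 to 10289, with 6 of 8 below 0 and Cdh5 called lower. Cdh5 made up most of the CTRL sums, and without it the sums of the other 7 ran from 3974 to 4569 and from 2957 to 5779.9 and overlapped. Sums of 10 macrophage markers ran from 29189 to 62361 and from 13411 to 74453, with T4 the highest, 8 of 10 below 0, and Csf1r and Cd163 called lower.

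Sums of 8 neutrophil markers ran from 1014 to 3744 in CTRL and from 1094 to 17511 in D30 tumors, with 7 of 8 fold changes above 0 and none called. The highest sum was in T5, the tumor that also held the highest values of Atf4, Ddit3, Nupr1, Trib3, Ppp1r15a and Vldlr. T5 held the highest epithelial sum too, and the lowest macrophage, T cell, islet and acinar sums. The part of any of these cell types in the values of T5 was not tested. Sums of 8 T cell markers ran from 346 to 676 and from 240 to 358, with 8 of 8 below 0 and none called. Sums of 10 islet markers ran from 1353 to 3033 and from 370 to 1809, with 10 of 10 below 0 and Ins1, Gcg, Ppy and Iapp called lower. Pdx1, with means of 1463 in CTRL and 1157 in D30 tumors, made up most of the sum in each D30 tumor. The hormone gene Ins1 had means of 202 and 0.23. Sums of 8 adipocyte markers ran from 4231 to 9861 and from 5428 to 6501, with 6 of 8 below 0 and none called. Cidec and Pparg, which were not below 0, made up most of these sums. N4, the highest tumor, held 271 of Adipoq and 2224 of Cfd, where no other tumor exceeded 7.46 and 94.6.

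Markers of acinar and plasma cells, both of them secretory, were also summed. Sums of 16 acinar markers ran from 346 to 81877 in CTRL and from 207 to 7804 in D30 tumors, with Amy2a2 at 0 in every tumor and 14 of the 15 tested markers below 0 and none called. N6 and N2 held the most acinar RNA. Sums of 10 plasma cell markers ran from 16635 to 54298 and from 26254 to 37089, with 8 of the 9 tested markers below 0 and none called. Sdc1, a gene that epithelium also expresses, made up most of the sum in the D30 tumors.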

How the data were processed

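Strand-specific RNA libraries of 10 tumors were sequenced by the authors. Their processing notes name CASAVA, FastQC, Trim Galore, STAR 2.7.0e and DESeq2 with the build GRCm39, whereas the methods name hg38. The annotation release, counting settings and use of strand are not given in the sources used here. The deposited values are a normalized signal, read counts scaled by 1 factor for each tumor, and 100% of them came back as whole reads (tolerance 0.01) once the step of each column was undone. The T columns were assigned to D30 as the only group left once the N columns were taken as normoglycemic, and column numbers do not match the replicate numbers of the labels. The study counts 5 tumors in each group, and p-values measure the spread between these tumors. The tumor titles say PDX while the source is given as KPC K8484 cells.

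Identifiers were named without version from GENCODE M21, which covered 94.1% of 55359 genes, and exonic lengths and overlaps came from the same annotation. The main test was limma 3.58.1 with a mean-variance trend (R 4.3.3) on log2(normalized count + 1) over 24560 genes with a mean of at least 1, with Benjamini-Hochberg adjustment. edgeR 4.0.16 and DESeq2 1.42.0 on the recovered reads, other pseudocounts, filters and scalings, and fits without each tumor were alternatives. Scripts were tested on simulated data. Values per tumor were given for Hspa5, Ern1, Atf6, Eif2ak3, Xbp1, Atf4, Ddit3 and Trib3, and for every gene of the 40 with an unadjusted p under 0.05 or groups that did not overlap. From each further list the genes called and the 2 with the smallest p were named, and other genes were named after their values were seen. The 40 genes, the further lists and the cell type markers were chosen with earlier results of these data known. Promoters were taken from RefSeq (GRCm38.p6), 250 bases before to 50 after each start.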

Additional observations from a re-analysis of the deposited data

Results flagged for a closer look

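Each of the 40 genes was examined in both groups, 80 groups in all, on the scale of log2(normalized count + 1). A highest or lowest tumor was flagged where its gap to the nearest other tumor exceeded 0.71 of the range of the group. This is Dixon's 95% critical value for 5 tumors. It was exceeded in 16 groups. The critical value is passed by about 1 in 20 groups of independent, normally distributed values. The 40 genes share the same tumors and are not independent, so the 16 groups were not tested against that rate. T4 was the tumor in 9 of them, T5 and N1 in 3 each and N4 in 1.

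T4 was the lowest D30 tumor for Atf6b (1046 normalized counts), Eif2ak3 (1327), Eif2ak1 (1028), Xbp1 (3075), Hyou1 (1808), Creld2 (786.5) and Syvn1 (890.6). It was the highest for Calr (54820) and Pdia3 (40410). T5 was the highest D30 tumor for Trib3 (1351), Ppp1r15a (5322) and Vldlr (1442). Among the CTRL tumors N1 was the highest for Eif2s1 (5978) and the lowest for Sel1l (2137) and Syvn1 (1535), and N4 was the highest for Hsp90b1 (15180).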

How the results depend on the processing

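No paired analysis was possible because the numbers of the table's columns do not match the replicate numbers of the labels. The number of genes called was 678 and became 1982 with DESeq2, 2105 with T4 and T5 both left out (chosen after seeing the data), and 270 to 1530 with 1 tumor left out, lowest without N2 and highest without T4. Of the 40 genes 2 were called, 10 with DESeq2, 10 without T4 and T5, and 1 (without N2 or N5) to 7 (without T4) with 1 tumor left out. Of the 119 further genes 7 were called, 4 with library-size scaling, 12 with DESeq2, 15 without T4 and T5, and 1 (without N6) to 12 (without T4) with 1 tumor left out. The median log2 fold change of the chaperones was 0.44 and became 0.21 with library-size scaling, and that of the transcription factors was 0.48 and ran from 0.45 to 0.82 with 1 tumor left out. The median of the feedback genes was 1.34 and became 2.11 with edgeR and 2.14 with DESeq2. The sign turned for Ern1 (-0.0054), to 0.040 with upper-quartile scaling, 0.039 with edgeR, 0.045 with DESeq2, 0.30 without T4 and T5, and -0.14 to 0.23 with 1 tumor left out. With library-size scaling it also turned for Eif2ak3 (-0.10) and Edem2 (-0.034). Over the 32 named genes and 20 alternatives, 569 values kept direction and side of the threshold, 40 lost the call, 19 gained it and 10 changed sign. Fgf21 was not tested with the filter at a mean of 10, and DESeq2 gave no adjusted p for Vldlr or Ero1l. The cause of these changes was not tested. At the 0 to 7 reads of Fgf21 in CTRL tumors, depth limits its fold change.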
